A study of Homo sapiens with 12 samples.

Results

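The vascular endothelial growth factor (VEGF) system of a breast cancer cell line was followed through 10 genes, out of 23228 listed in the deposited files, matched by gene symbol. They are the ligands VEGFA, VEGFB, VEGFC and PGF, the tyrosine kinase receptors KDR and FLT1, the co-receptors NRP1 and NRP2, and CD34 and VWF, which are best known as genes of blood vessel lining cells. The set was chosen by measured values: CD34 and VWF counts were higher and KDR counts lower in the induced groups, so the levels of these 3 genes are given as a description with no test. The other 7 were taken as members of the VEGF family, and 6 of them passed the filter on low counts and were tested.

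VEGF ligands are secreted dimers that bind receptor tyrosine kinases on endothelial cells and drive vessel growth. KDR carries most of the growth signal, FLT1 binds VEGFA tightly but signals weakly and also exists as a soluble decoy, and the neuropilins NRP1 and NRP2 present the ligand to the kinase receptors and bind class 3 semaphorins as well. Breast cancer cells are known as a source of VEGFA, while CD34 and VWF are usually read as signs of endothelial cells, or, for CD34, of blood progenitors.

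The libraries came from MDA-MB-468 cells, an epithelial line of triple-negative breast cancer, in which doxycycline switches on ERbeta1, a form of estrogen receptor beta encoded by ESR2. Cells of the induced E2 group (3 libraries) received 50 ng/mL doxycycline for 48 hours and then 10 nM 17β-estradiol (E2) for 4 hours. Induced vehicle cells (3 libraries) received the same doxycycline and then 0.1% DMSO. Uninduced E2 cells (3 libraries) received no doxycycline and then E2, and uninduced vehicle cells (3 libraries) received no doxycycline and then DMSO. All 4 groups carried the inducible receptor and were grown without phenol red in charcoal-stripped serum. The promoter behind the receptor and the number of clones are not given in the sources used here, and with no doxycycline group lacking the receptor, the drug and the receptor cannot be told apart. Separate cultures are not stated for the samples that the labels call triplicates, and p-values then cover the scatter among these libraries, which may be technical.

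Totals ran from 7.89 to 33.3 M counts per library, and uninduced vehicle replicate 1 was the shallowest. A floor of 3 counts corresponds to 0.0896 to 0.375 CPM (counts-per-million, scaled by TMM), counting error only. ESR2 averaged 104 ± 10.2 CPM in induced E2 and 121 ± 11.7 CPM in induced vehicle libraries, against 1.61 ± 0.57 CPM in uninduced E2 and 1.30 ± 0.22 CPM in uninduced vehicle libraries (SD, n = 3 each). Each library matched its doxycycline label, while ESR2 cannot check the E2 or vehicle label.

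Promoters of 7 of the 10 members were found in a RefSeq table of build GRCh38.p14 (VEGFA, NRP1 and VWF were not matched), while the counts rest on hg19 gene models. Those of KDR, CD34 and FLT1 are shown because, of the matched members, these had the largest fold changes with doxycycline in the presence of E2. Each sequence holds the 250 bases before the annotated start, read 5′ to 3′ on the gene's strand, and capitals mark GC boxes (GGGCGG on either strand), the element bound by SP1-type factors. KDR lies at chr4:55125596-55125845, CD34 at chr1:207911126-207911375 and FLT1 at chr13:28495129-28495378, all on the minus strand.
KDR: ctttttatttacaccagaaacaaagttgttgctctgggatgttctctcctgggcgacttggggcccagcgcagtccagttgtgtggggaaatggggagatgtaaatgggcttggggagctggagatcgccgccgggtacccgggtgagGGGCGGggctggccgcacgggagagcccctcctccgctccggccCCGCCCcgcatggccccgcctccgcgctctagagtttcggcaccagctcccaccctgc
CD34: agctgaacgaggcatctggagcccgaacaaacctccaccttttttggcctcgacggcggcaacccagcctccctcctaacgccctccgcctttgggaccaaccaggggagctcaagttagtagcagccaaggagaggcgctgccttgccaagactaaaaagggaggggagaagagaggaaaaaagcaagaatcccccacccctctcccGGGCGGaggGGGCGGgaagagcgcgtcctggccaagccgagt
FLT1: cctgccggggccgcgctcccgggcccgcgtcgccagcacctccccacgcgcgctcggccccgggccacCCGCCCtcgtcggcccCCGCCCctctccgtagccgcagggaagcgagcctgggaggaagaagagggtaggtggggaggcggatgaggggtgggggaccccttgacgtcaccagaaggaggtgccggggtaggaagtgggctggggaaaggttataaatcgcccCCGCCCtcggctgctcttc

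In these windows KDR held 2 GC boxes, 102 and 58 bases before the start, CD34 held 2, at 42 and 33 bases, and FLT1 held 3, at 182, 166 and 19 bases. A GC box was present in 42.6% of the 35116 promoters in the table. None of the 3 windows held the full estrogen response element (the half-site GGTCA and its reverse complement, 3 bases apart), which occurs in 0.0399% of all promoters. None held the half-site GGTCA alone, which lies within the full element and occurs in 32.6%. The AP-1 site TGANTCA, present in 6.57% of all promoters, was not in these letters either. All motifs were searched on both strands. The GC content was 65.2% for KDR, 61.6% for CD34 and 73.2% for FLT1, against a median of 58% over all promoters. Of the other matched members, VEGFB and both listed PGF promoters held 1 half-site each, and VEGFC and NRP2 held none.

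E2 raised VEGFA and FLT1 and lowered NRP1 in induced cells, whereas KDR was lower and CD34 and VWF were higher already with doxycycline alone. In induced cells, 3 of the 6 tested family members changed with E2 (edgeR's quasi-likelihood test with Benjamini-Hochberg adjustment over all 14541 genes tested), against 16.5% of all genes. Of these 3, 2 rose and 1 fell, against 9.85% of all genes higher and 6.61% lower. With E2 in both arms, doxycycline raised 2 and lowered 1 of the 6, the same 3 members, against 28% of all genes called, 15% higher and 13% lower (2184 and 1894 genes, or 1799 and 2679 with upper quartile scaling). Doxycycline without E2 changed 0 of 6, against 3.81% of all genes, 2.44% higher and 1.37% lower. At an unadjusted p under 0.05, 2 of the 6 (NRP1 and NRP2) would pass in that comparison, and DESeq2 and limma-voom also called 0. A fit with the replicate number as a block called 1 (NRP2) there, with 805 of all genes higher and 651 lower. For doxycycline with E2 that fit called 5 of the 6, adding VEGFB and NRP2, with 2774 of all genes higher and 2646 lower.

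In uninduced cells, E2 changed 0 of the 6 members, and edgeR called 0% of all genes there (0 of 14541, with 227 at an unadjusted p under 0.05). No member had an unadjusted p under 0.05 in that comparison, and DESeq2 and limma-voom called 0 members. The interaction, which sets the E2 difference of induced cells against that of uninduced cells, was called for 3 of the 6, against 8.47% of all genes (2 positive against 5.66%, 1 negative against 2.81%). It equals the doxycycline difference with E2 minus that without E2. These interaction calls lay close to the threshold, and their number fell when any of several single libraries was left out, while the signs held. Their number was 0 without induced E2 replicate 2 or 3 or uninduced vehicle replicate 2, and 1 without induced vehicle replicate 2 or 3 or uninduced vehicle replicate 3. It was 2 without induced vehicle replicate 1 or without any 1 of the uninduced E2 libraries. Over all genes, the interaction had 823 positive and 409 negative calls. These went to 660 and 308 without induced E2 replicate 2 and to 650 and 320 without uninduced vehicle replicate 2. Without induced vehicle replicate 1 they were 880 and 527. The comparisons share libraries: induced E2 enters both E2 in induced cells and doxycycline with E2, and induced vehicle enters both E2 in induced cells and doxycycline without E2.

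**Figure D1:**
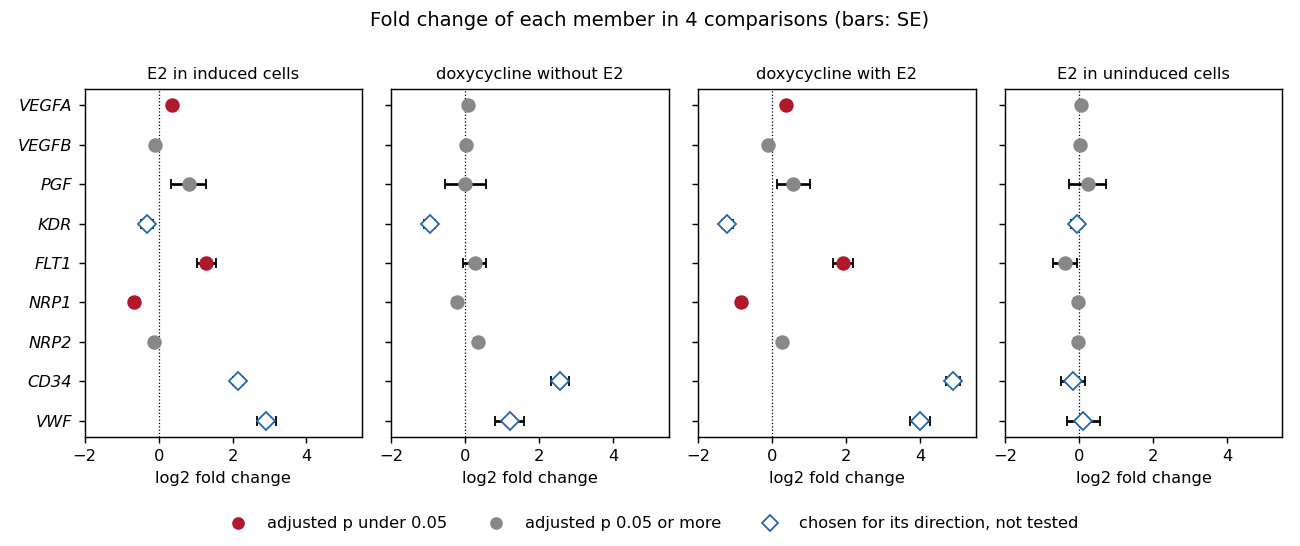
Log2 fold change of 9 members (rows) with the standard error of the fit as bars, in 4 comparisons (panels): E2 in induced cells, doxycycline without E2, doxycycline with E2, and E2 in uninduced cells. Red points passed an adjusted p under 0.05, grey points did not, and open diamonds mark KDR, CD34 and VWF, which were chosen for their direction and not tested; CD34 and VWF lie farthest to the right in each panel with doxycycline, up to 4.88, and all points of E2 in uninduced cells lie between −0.38 and 0.24.

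Of the ligands, VEGFA had the most counts and rose with E2 in induced cells, while VEGFB was the most abundant per length. VEGFA, the ligand that drives most vessel growth, had 101, 109 and 105 CPM in induced E2 libraries, 82.7, 78.6 and 85.3 CPM in induced vehicle libraries, 79.8, 76.7 and 88.0 CPM in uninduced E2 libraries, and 71.2, 80.3 and 81.5 CPM in uninduced vehicle libraries. The 3 induced E2 libraries were above all others, and the other 9 overlapped. VEGFA rose by 0.35 log2 with E2 in induced cells (SE 0.06, adjusted p = 0.00068, edgeR), which is 27.8% higher, and by 0.36 log2 with doxycycline in the presence of E2 (SE 0.06, adjusted p = 0.000274). Within replicate numbers 1, 2 and 3, which also mark lane and file date, the E2 difference in induced cells was 0.28, 0.47 and 0.30 log2.

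Without E2, doxycycline left VEGFA at a difference of 0.07 log2 (SE 0.06, adjusted p = 0.684), and E2 in uninduced cells left 0.06 log2 (SE 0.06, adjusted p = 1). The VEGFA interaction was 0.30 log2 (SE 0.08, adjusted p = 0.0431, edgeR), or 0.0732 with upper quartile scaling. In bulk RNA, a higher level in every cell and more cells that express the gene cannot be told apart, here and for every member below.

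VEGFB, a ligand of FLT1 linked to fat uptake and cell survival, had 60.7, 62.7 and 61.1 CPM in induced E2 libraries, 59.3, 68.2 and 68.0 CPM in induced vehicle libraries, 64.2, 71.3 and 65.0 CPM in uninduced E2 libraries, and 63.9, 64.9 and 66.7 CPM in uninduced vehicle libraries. The induced E2 libraries lay under both uninduced groups and overlapped with induced vehicle. The doxycycline difference with E2 was −0.12 log2 (SE 0.05, adjusted p = 0.115, edgeR), or adjusted p = 0.0305 with the replicate number as a block. The E2 difference in induced cells was −0.09 log2 (SE 0.06, adjusted p = 0.338), and doxycycline without E2 left 0.00 log2 (SE 0.06, adjusted p = 0.995).

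PGF, placental growth factor, another FLT1 ligand, was barely present. It had 0.569, 0.275 and 0.539 CPM in induced E2 libraries, from 10, 7 and 12 counts, and 0.0777, 0.189 and 0.473 CPM in induced vehicle libraries, from 1, 6 and 9 counts. Uninduced E2 libraries had 0.226, 0.359 and 0.278 CPM, and uninduced vehicle libraries 0.375, 0.227 and 0.238 CPM. All groups overlapped, and its E2 difference in induced cells, 0.82 log2 (SE 0.47, adjusted p = 0.306, edgeR), was not detectable at this depth. VEGFC, the main ligand for lymphatic vessels, had 0 counts in all 12 libraries, which allows levels up to the floor of 0.0896 to 0.375 CPM.

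KDR and FLT1 went in opposite directions. KDR, the main signalling receptor, had 17.1, 19.3 and 20.3 CPM in induced E2 libraries and 18.1, 25.3 and 26.1 CPM in induced vehicle libraries. It had 34.2, 47.7 and 49.1 CPM in uninduced E2 libraries and 35.5, 50.8 and 48.4 CPM in uninduced vehicle libraries. All 6 induced libraries were below all 6 uninduced ones, the E2 and vehicle ranges overlapped in either state, and the library numbered 1, of the earlier file date, was the lowest of each group. KDR stood 0.97 log2 lower with doxycycline without E2 (log2 −0.97, SE 0.16) and 1.22 log2 lower with E2 (log2 −1.22, SE 0.15). The doxycycline difference within numbers 1, 2 and 3 was −0.97, −1.01 and −0.89 log2 without E2. The E2 difference was −0.32 log2 in induced cells (SE 0.17), and within numbers 1, 2 and 3 it was −0.09, −0.39 and −0.36 log2, lower in all 3 pairs. In uninduced cells it was −0.07 log2 (SE 0.14), with −0.05, −0.09 and 0.02 log2 within numbers.

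FLT1, the high-affinity receptor for VEGFA, VEGFB and PGF, was a rare transcript. It had 1.31, 1.77 and 1.93 CPM in induced E2 libraries, from 23.0, 44.9 and 42.9 expected counts, and 0.699, 0.754 and 0.579 CPM in induced vehicle libraries. Uninduced E2 libraries had 0.34, 0.538 and 0.398 CPM, and uninduced vehicle libraries 0.25, 0.604 and 0.675 CPM, the lowest of them from 2.48 expected counts. The induced E2 libraries were above the other 9, which overlapped in part.

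FLT1 rose by 1.29 log2 with E2 in induced cells (SE 0.26, adjusted p = 0.0029, edgeR), which is 2.45-fold, in all 3 same-numbered pairs (0.90, 1.23 and 1.74 log2). With doxycycline in the presence of E2 it rose by 1.92 log2 (SE 0.27, adjusted p = 8.56e-05), which is 3.79-fold. Doxycycline without E2 left 0.25 log2 (SE 0.32, adjusted p = 0.806), and E2 in uninduced cells left −0.38 log2 (SE 0.33, adjusted p = 1). The FLT1 interaction was 1.67 log2 (SE 0.43, adjusted p = 0.0239, edgeR), or 0.0789 by DESeq2.

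Of the co-receptors, NRP1 fell with E2 in induced cells. NRP2 was not called by the main edgeR fit, but some alternatives called it with doxycycline. NRP1 had 8.81, 7.59 and 6.79 CPM in induced E2 libraries, 13.7, 12.3 and 10.5 CPM in induced vehicle libraries, 14.9, 13.2 and 13.5 CPM in uninduced E2 libraries, and 14.99, 13.18 and 14.89 CPM in uninduced vehicle libraries. The induced E2 libraries were below all others, and induced vehicle overlapped with both uninduced groups. NRP1 fell by 0.65 log2 with E2 in induced cells (SE 0.11, adjusted p = 0.000838, edgeR), a change of −36.4%, with −0.63, −0.70 and −0.63 log2 within numbers. With doxycycline in the presence of E2 it fell by 0.85 log2 (SE 0.11, adjusted p = 3.45e-05).

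Doxycycline without E2 left NRP1 at −0.24 log2 (SE 0.11, adjusted p = 0.308), and E2 in uninduced cells left −0.04 log2 (SE 0.10, adjusted p = 1). The NRP1 interaction was −0.61 log2 (SE 0.15, adjusted p = 0.0219, edgeR).

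NRP2 had 11.7, 13.1 and 12.4 CPM in induced E2 libraries and 15.4, 12.9 and 12.6 CPM in induced vehicle libraries, against 12.1, 10.1 and 9.30 CPM in uninduced E2 and 10.4, 11.4 and 10.0 CPM in uninduced vehicle libraries. Induced vehicle libraries were all above uninduced vehicle ones, and the groups with E2 overlapped. Doxycycline left a difference of 0.34 log2 without E2 (SE 0.11, adjusted p = 0.115, edgeR) and 0.26 log2 with E2 (SE 0.10, adjusted p = 0.076), and with the replicate number as a block these adjusted p were 0.0355 and 0.021. For doxycycline with E2, NRP2 also passed by limma-voom (adjusted p = 0.0439) and with the later file date alone (adjusted p = 0.00251, edgeR). It passed as well without induced vehicle replicate 1 or uninduced E2 replicate 1 (adjusted p = 0.0491 and 0.0177, edgeR), and not under the remaining alternatives. E2 in induced cells left −0.11 log2 (SE 0.10, adjusted p = 0.548). The difference between the 2 neuropilins was not tested.

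**Figure D2:**
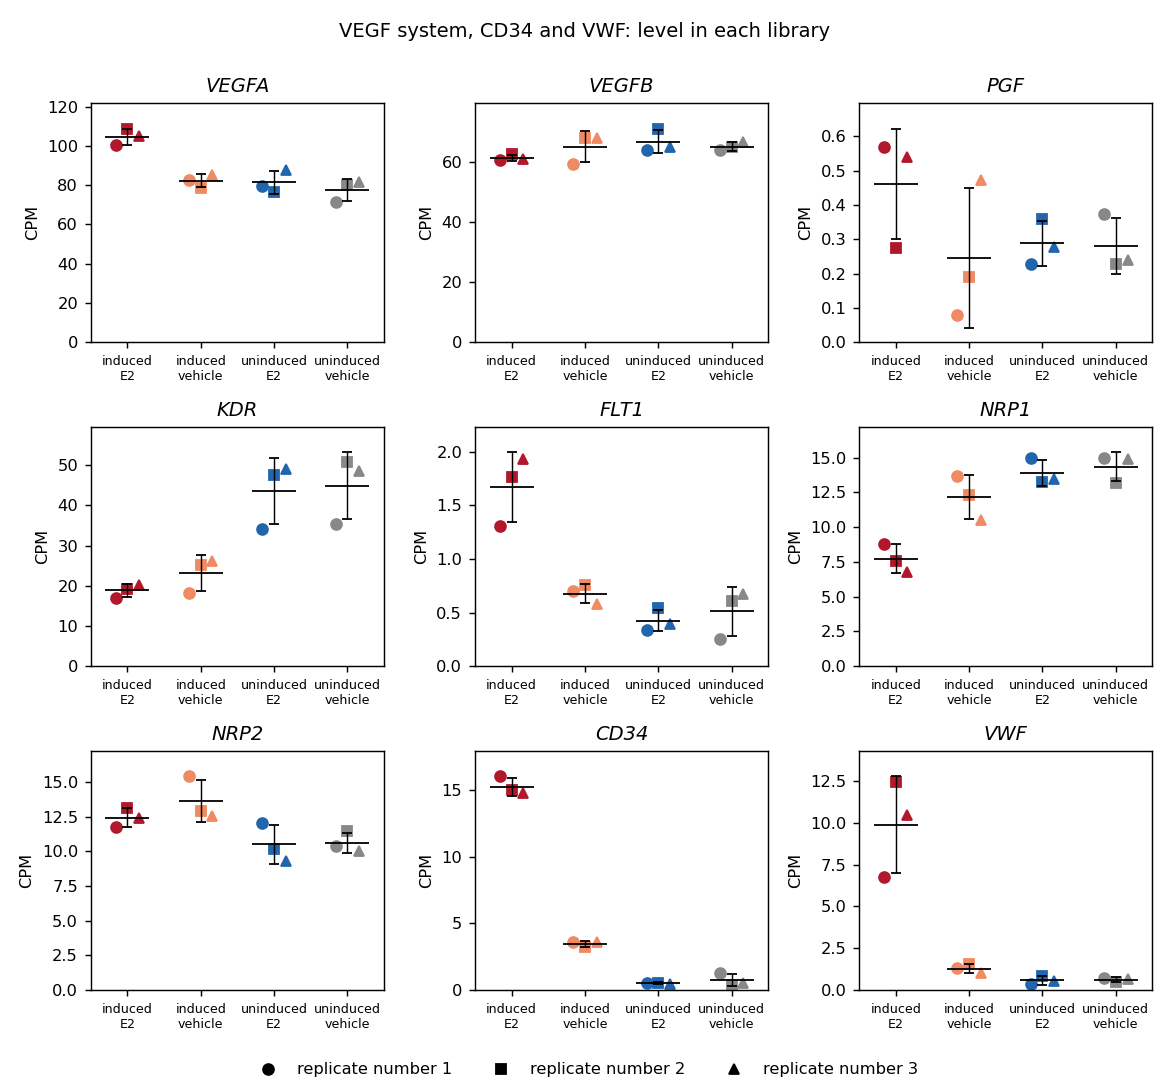
Level of 9 members in CPM (vertical axes from 0, one scale per panel) in the 3 libraries of each group: induced E2, induced vehicle, uninduced E2 and uninduced vehicle, with the group mean as a line, the SD as a bar, and the marker shape giving the replicate number. CD34 and VWF are highest in induced E2 libraries, KDR is low in all 6 induced libraries, and VEGFA, FLT1 and NRP1 set induced E2 apart from the other 3 groups.

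CD34, a surface sialomucin of endothelial cells and blood progenitors, was the member with the largest differences with doxycycline. It had 16.04, 14.98 and 14.79 CPM in induced E2 libraries, 3.58, 3.21 and 3.63 CPM in induced vehicle libraries, 0.566, 0.538 and 0.437 CPM in uninduced E2 libraries, and 1.25, 0.378 and 0.556 CPM in uninduced vehicle libraries. The uninduced values rest on 10 to 18 counts per library, and the highest of them, in uninduced vehicle replicate 1, on 10. Induced E2 libraries lay above induced vehicle libraries, which lay above all uninduced ones. CD34 stood 4.88 log2 higher with doxycycline in the presence of E2 (SE 0.19), 29.5-fold, and 2.56 log2 higher without E2 (SE 0.24), 5.89-fold. E2 stood for 2.15 log2 in induced cells (SE 0.14), 4.44-fold, and −0.17 log2 in uninduced cells (SE 0.33). Within numbers the E2 difference in induced cells was 2.17, 2.22 and 2.03 log2.

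VWF, the large clotting protein that endothelial cells and platelets store, had 6.77, 12.4 and 10.5 CPM in induced E2 libraries, 1.32, 1.54 and 0.999 CPM in induced vehicle libraries, 0.34, 0.837 and 0.557 CPM in uninduced E2 libraries, and 0.749, 0.453 and 0.635 CPM in uninduced vehicle libraries. Groups were ordered as for CD34 and without overlap, except that the 2 uninduced groups overlapped. VWF stood 4.00 log2 higher with doxycycline in the presence of E2 (SE 0.28), 15.9-fold, and 1.20 log2 higher without E2 (SE 0.40), 2.29-fold. The E2 difference was 2.91 log2 in induced cells (SE 0.25), 7.54-fold and larger than that of CD34, and 0.12 log2 in uninduced cells (SE 0.44). That difference between the 2 genes was not tested. VWF has a partial pseudogene copy elsewhere in the genome whose symbol is not listed in the files, so its count is less certain than that of the other members.

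Transcript levels compared per length used transcripts-per-million (TPM), taken from the authors' fractions. VEGFB averaged 131 TPM over the 12 libraries and VEGFA 52.5 TPM, and their ranges, 119 to 143 and 44.3 to 64.7 TPM, did not meet. KDR averaged 11.5, NRP1 5.54, NRP2 4.34 and CD34 4.00 TPM, with ranges that met. VWF averaged 0.726, FLT1 0.476 and PGF 0.373 TPM, also with ranges that met. The order changed by group: in induced E2 libraries CD34 averaged 12.1 ± 0.47 TPM, above KDR at 6.45 ± 0.588 TPM, while in uninduced vehicle libraries CD34 averaged 0.607 ± 0.394 TPM, below KDR at 15.9 ± 2.85 TPM (SD, n = 3 each).

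The balance between paired members shifted with these levels. There were 1.95 ± 0.05 VEGFB transcripts per VEGFA transcript in induced E2 libraries, against 2.64 ± 0.25 in induced vehicle libraries, and 2.74 ± 0.32 in uninduced E2 against 2.79 ± 0.16 in uninduced vehicle libraries. KDR outnumbered FLT1 by 6.91 to 7.91 in induced E2 and 13.6 to 25.6 in induced vehicle libraries, and by 50.2 to 79.7 in uninduced E2 libraries. In uninduced vehicle libraries the ratio was 43.6 and 39.2 in numbers 2 and 3, and none is given for number 1, where FLT1 had 2.48 expected counts. NRP1 per NRP2 was 0.871 ± 0.133 in induced E2 and 1.06 ± 0.10 in induced vehicle libraries, against 1.64 ± 0.13 in uninduced E2 and 1.71 ± 0.35 in uninduced vehicle libraries. These ratios were not tested.

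Gene-level counts do not separate splice forms such as soluble FLT1 or the VEGFA isoforms, but the ratio of count to fraction gives the mean transcript length of a gene relative to other libraries. VEGFA, with 18 RefSeq transcripts listed in the files, stayed between 99.7% and 100.3% of its 12-library mean. NRP1, with 3 transcripts, was at 96.7%, 82.5% and 90.9% in induced E2 libraries, which average 90.0% ± 7.15, against 106% ± 7.04 in induced vehicle, 104% ± 2.78 in uninduced E2 and 99.6% ± 7.26 in uninduced vehicle libraries (SD, n = 3 each). NRP1 lengths in induced E2 libraries did not overlap with those of induced vehicle or uninduced E2 libraries. FLT1, with 4 transcripts, was at 109% ± 5.53 in induced E2 against 92.6% ± 4.54 in induced vehicle libraries, without overlap, from few reads.

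With 3 libraries against 3, the exact permutation test cannot go below p = 0.1, the value it gave for both genes. On the per-length scale, the E2 difference of NRP1 in induced cells was smaller, at −0.45, −0.40 and −0.53 log2 within numbers, and that of FLT1 was 0.65, 0.96 and 1.50 log2. NRP1 had 3.88 ± 0.426 TPM in induced E2 and 5.31 ± 0.38 TPM in induced vehicle libraries, still without overlap. NRP2 and CD34 lengths stayed within 96.8% to 103% and 98.4% to 106% of their means.

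**Figure D3:**
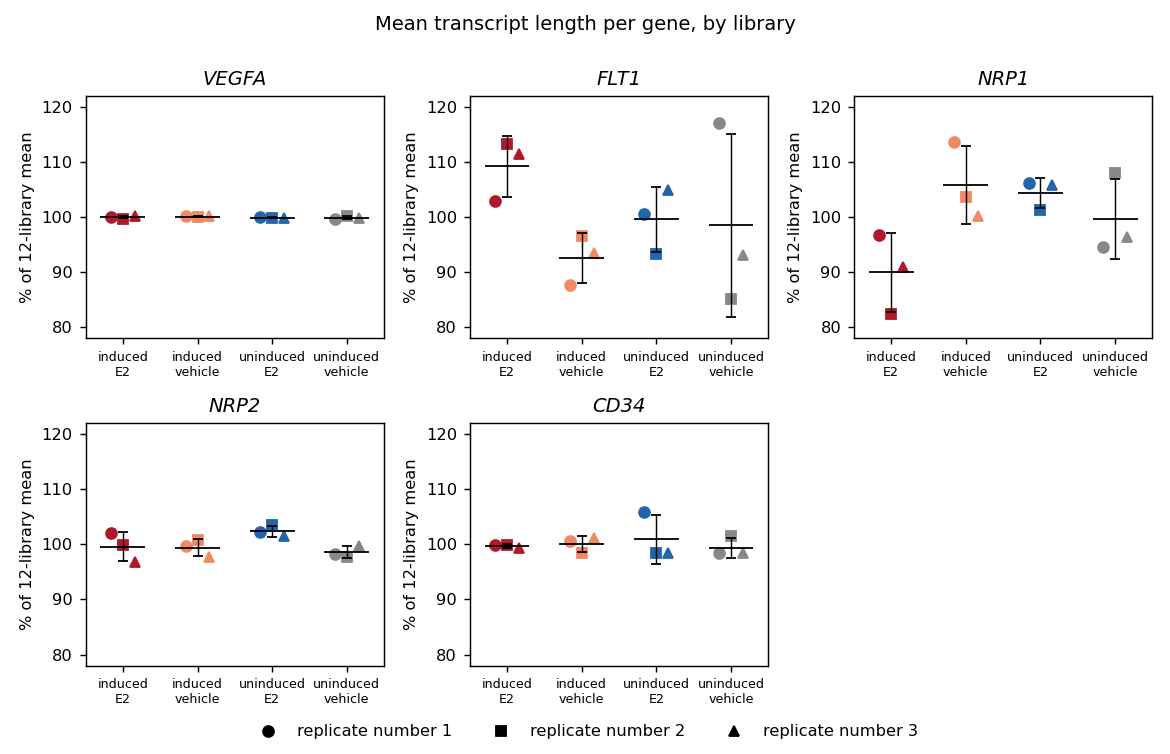
Mean transcript length of VEGFA, FLT1, NRP1, NRP2 and CD34 as a percentage of the gene's mean over 12 libraries (vertical axes, the same in every panel), by group, with the group mean as a line, the SD as a bar and marker shapes for replicate numbers. VEGFA stays within 99.7% to 100.3%, while NRP1 in induced E2 libraries lies between 82.5% and 96.7%.

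Most other endothelial markers were scarce. Of 20 endothelial markers, 16 averaged under 1 TPM and 4 (TIE1, SOX17, MMRN1 and LYVE1) had 0 counts in every library. The defining markers PECAM1, CDH5 and TEK averaged 0.355, 0.0734 and 0.0621 TPM. ENG (20.7 TPM) and EGFL7 (14.8 TPM) made up most of the summed level, which was 43.8 to 47.3 TPM in induced E2, 45.0 to 45.4 TPM in induced vehicle, 41.8 to 42.6 TPM in uninduced E2 and 40.0 to 45.3 TPM in uninduced vehicle libraries.

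Of the 7 endothelial markers tested, 0 changed with E2 in induced cells (0 at an unadjusted p under 0.05) and 0 with doxycycline without E2 (1 at an unadjusted p under 0.05), both by edgeR, DESeq2 and limma-voom. Over all genes edgeR called 16.5% and 3.81% in these comparisons, and 7 genes are too few to set a count of 0 apart from such shares. With the replicate number as a block, doxycycline without E2 raised ENG, a co-receptor for TGF-beta family ligands, by 0.18 log2 (SE 0.06, adjusted p = 0.0465, edgeR), against adjusted p = 0.168 without the block. With doxycycline in the presence of E2, 1 of the 7 rose, against 15% of all genes higher. It was MMRN2, an extracellular matrix protein of endothelium, which rose by 0.41 log2 (SE 0.12, adjusted p = 0.0233, edgeR). That call was lost by DESeq2, with the later file date alone, and without induced E2 replicate 1 or 2 or uninduced E2 replicate 1 or 2.

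Epithelial markers summed to 13476 to 13766 TPM in induced E2 and 11765 to 12519 TPM in induced vehicle libraries, against 11007 to 11585 TPM in uninduced E2 and 11333 to 11616 TPM in uninduced vehicle libraries. Of these 10 markers, 3 rose with E2 in induced cells, against 9.85% of all genes higher. Among them was CDH1, which encodes E-cadherin, by 0.91 log2 (SE 0.04, adjusted p = 1.52e-09, edgeR). With the block 5 rose, adding KRT19 and KRT7, and 1963 of all genes were called higher, against 1433 without it. Doxycycline raised 3 without E2, against 2.44% of all genes higher, and 4 with E2, against 15%. In both it lowered 1, the basal keratin KRT5, against 1.37% and 13% of all genes lower. KRT5 fell by 0.51 log2 without E2 (SE 0.05, adjusted p = 2.43e-05, edgeR) and by 0.52 log2 with E2 (SE 0.05, adjusted p = 1.78e-06). Of 12 blood cell markers, 9 averaged under 1 TPM, with the pan-leukocyte gene PTPRC at 0.0677 TPM and CD33 and PF4 at 0. Of the 6 blood cell markers tested, the transcription factor RUNX1 alone rose with E2 in induced cells, against 9.85% of all genes higher. RUNX1 rose by 0.88 log2 (SE 0.11, adjusted p = 5.01e-05, edgeR). It set the summed level of 38.2 to 42.2 TPM in induced E2 against 22.2 to 27.6 TPM in induced vehicle libraries. RUNX1 alone was also called for doxycycline with E2, at 1.08 log2 (SE 0.11, adjusted p = 3.23e-06, edgeR), against 15% of all genes higher. Its interaction was 0.80 log2 (SE 0.16, adjusted p = 0.00502, edgeR), against 5.66% of all genes positive. With the block, RUNX1 was called for doxycycline without E2 too, at 0.26 log2 (SE 0.06, adjusted p = 0.00707, edgeR), and KIT for doxycycline with E2, at −0.80 log2 (SE 0.25, adjusted p = 0.0155). The later file date alone called RUNX1 there as well, and limma-voom and the fit without induced E2 replicate 3 called KIT. The fibroblast and pericyte list (8 genes, 3 tested) had 7 genes under 1 TPM and no call (edgeR, 1 of 3 at an unadjusted p under 0.05 with E2 in induced cells; limma-voom and the replicate block called ACTA2 there).

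**Figure D4:**
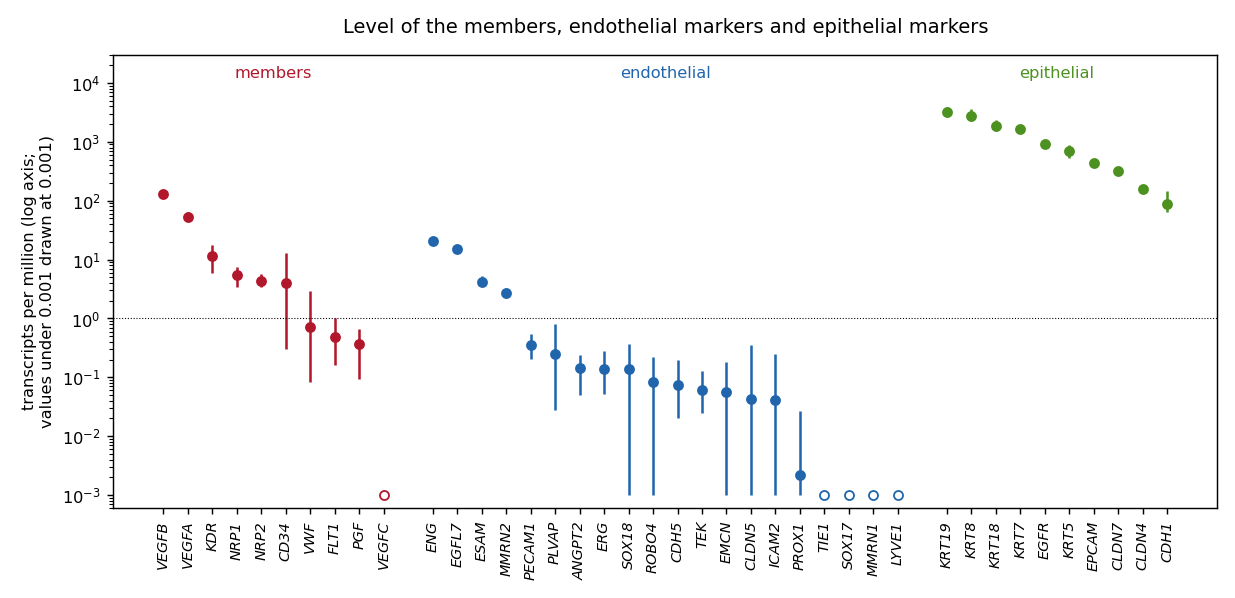
Mean TPM over 12 libraries (points) with the lowest and highest library (lines), on a log axis, for the 10 members (red), 20 endothelial markers (blue) and 10 epithelial markers (green); open points at the bottom had 0 counts in every library. Epithelial markers average 88.3 TPM or more (lowest library 64.3 TPM, for CDH1), 16 of the 20 endothelial markers average under 1 TPM (dotted line), and VEGFC is among the open points.

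Around the members, other genes of the VEGF pathway moved in both directions with E2 in induced cells. Of 28 tested, 7 rose and 5 fell with E2 in induced cells, against 16.5% of all genes called, with a median of 0.02 log2 against 0.00 log2 over all genes tested. SHB, an adaptor that binds activated KDR, rose by 1.22 log2 (SE 0.04, adjusted p = 4.59e-10, edgeR) and averaged 185 ± 3.4 CPM in induced E2 against 79.1 ± 3.4 CPM in induced vehicle libraries. SEMA3B and SEMA3F, class 3 semaphorins that bind neuropilins, rose by 1.39 log2 (SE 0.09) and 0.93 log2 (SE 0.04). TIMP3, a protease inhibitor that also blocks VEGFA binding to KDR, rose by 0.83 log2 (SE 0.04). The 5 that fell, named after their values were seen, were SEMA3A (−0.74 log2), SEMA3C (−0.71 log2), the receptor phosphatase PTPRJ (−0.44 log2), CRIM1 and the adhesion adaptor PXN (−0.19 log2 each).

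Doxycycline without E2 raised 3 and lowered 4 of the 28, against 3.81% of all genes called, with a median of −0.02 log2 against 0.00 log2 over all genes. SEMA3B rose by 1.35 log2 (SE 0.11, adjusted p = 2.95e-06, edgeR), the heat shock protein HSPB1, a late target of KDR signalling, by 0.30 log2 (SE 0.05), and SEMA3F by 0.22 log2 (SE 0.04), while SEMA3A fell by 0.31 log2 (SE 0.07, adjusted p = 0.024). The count of 7 dropped to 3 without induced vehicle replicate 1 or 3 or uninduced vehicle replicate 2, and to 2 without uninduced vehicle replicate 3. SEMA3B and HSPB1 were called in each of these. Calls over all genes fell as well, from 355 higher and 199 lower. They were 311 and 125 without induced vehicle replicate 1, and 270 and 113 without replicate 3. Without uninduced vehicle replicate 2 they were 253 and 111, and without replicate 3 they were 257 and 112. With E2 in both arms, doxycycline raised 7 and lowered 7, against 28% of all genes called, with SEMA3B at 2.83 log2 (SE 0.10). E2 in uninduced cells changed 0 of 28 (edgeR, 0 at an unadjusted p under 0.05). FLT4, the receptor of VEGFC, averaged 0.279 TPM with no call, and the ligand FIGF had 0 counts.

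**Figure D5:**
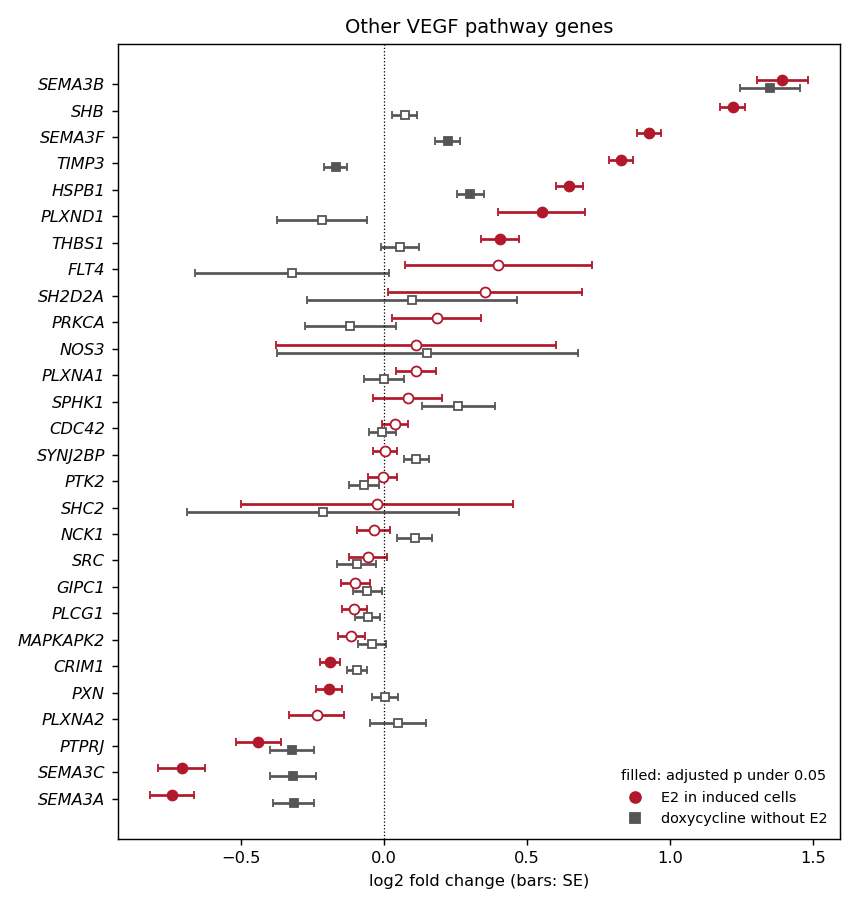
Log2 fold change (horizontal axis, bars give the SE) of the 28 tested VEGF pathway genes beside the members, for E2 in induced cells (red circles) and doxycycline without E2 (grey squares), ordered by the first; filled symbols passed an adjusted p under 0.05. The semaphorins lie at both ends, with SEMA3B at 1.39 and 1.35 and SEMA3A at −0.74 and −0.31; both comparisons use the induced vehicle libraries.

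Hypoxia is a known inducer of VEGFA, and the HIF pathway and its common targets were therefore listed. Of 16 tested, 3 rose and 1 fell with E2 in induced cells, a count of 4 near the background of 16.5% of all genes called (9.85% higher, 6.61% lower), with a median of 0.01 log2 against 0.00 log2 over all genes. HIF1A, the oxygen-regulated subunit, rose by 0.44 log2 (SE 0.05, adjusted p = 8.91e-06, edgeR), NDRG1 by 1.05 log2 (SE 0.18) and the oxygen sensor EGLN1 by 0.19 log2 (SE 0.04), while the glucose transporter SLC2A1 fell by 0.57 log2 (SE 0.06). Doxycycline without E2 changed 1 of 16, against 3.81% of all genes called. It was NDRG1, which fell by 0.99 log2 (SE 0.19, adjusted p = 0.00706, edgeR), with DESeq2 adding HIF1A. The block called 3 there, adding HIF1A at 0.16 log2 (SE 0.04, adjusted p = 0.0081) and ADM at −0.31 log2 (SE 0.09, adjusted p = 0.0394). Over all genes, the block called 805 higher and 651 lower in that comparison. With E2 in both arms doxycycline raised 3 and lowered 3, against 28% of all genes called.

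Relatives and partners of CD34 and VWF were few, and their counts are to be read against the shares of all genes called. These were 28% for doxycycline with E2, 16.5% for E2 in induced cells and 3.81% for doxycycline without E2. For the interaction the share was 8.47%, and for E2 in uninduced cells 0%. Of CD34's family and partners, 3 of 6 were tested, and 1 rose with doxycycline in the presence of E2: PODXL, podocalyxin, by 0.19 log2 (SE 0.06, adjusted p = 0.0168, edgeR), a call lost without induced E2 replicate 1 or uninduced E2 replicate 3. In the other comparisons the count was 0 (edgeR, DESeq2 and limma-voom), with 0 at an unadjusted p under 0.05. The later file date alone called PODXL2 for E2 in induced cells, and the later date and the block each called it for doxycycline with E2. The vascular selectins SELE and SELP had 0 counts. Of the 7 tested genes in the VWF list, which holds partners, relatives and processing genes, doxycycline with E2 changed 2. VWA1 rose by 0.24 log2 (SE 0.08, adjusted p = 0.0314, edgeR). FURIN, the protease that cuts pro-VWF, fell by 0.33 log2 (SE 0.11, adjusted p = 0.0399, edgeR). Both calls were lost without induced E2 replicate 2 and without uninduced E2 replicate 3, where ITGB3 passed instead. A single one of the 2 was left without induced E2 replicate 1 or 3, uninduced E2 replicate 1 or 2, or uninduced vehicle replicate 2 or 3, and with upper quartile scaling. In the other comparisons 0 of the 7 were called, but with the block VWA1 passed for E2 in induced cells, at 0.18 log2 (SE 0.04, adjusted p = 0.00573, edgeR), and for the interaction, and FURIN for doxycycline without E2, at −0.20 log2 (SE 0.05, adjusted p = 0.0257).

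Among 12 other angiogenic factors tested, 2 rose and 2 fell with E2 in induced cells, against 16.5% of all genes called, with a median of −0.14 log2 against 0.00 log2 over all genes. The later file date alone called 7, with 1908 of all genes higher and 1483 lower, against 1433 and 961 with both dates. CYR61, a matricellular protein, rose by 1.32 log2 (SE 0.06, adjusted p = 3.73e-09, edgeR) and PDGFB, which recruits pericytes, by 0.35 log2 (SE 0.05), while FGF2 fell by 0.72 log2 (SE 0.12) and the receptor EPHB4 by 0.25 log2 (SE 0.04). Doxycycline without E2 raised CYR61 by 0.70 log2 (SE 0.07) and lowered EFNB2, the ligand of EPHB4, by 0.28 log2 (SE 0.04, adjusted p = 0.000586, edgeR). These were 2 of the 12, against 3.81% of all genes called. The block called 4 of the 12 there, with 805 of all genes higher and 651 lower. It added ADM (also in the HIF list) and ANGPT1, a ligand of TEK, at −0.39 log2 (SE 0.08, adjusted p = 0.00233, edgeR).

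Genes whose log2 level ran most like a member's over the 12 libraries are given as a description, since the 4 groups they share set most of the likeness. Among the closest to CD34 were SLC1A2 (Pearson r = 0.992), RNF223 (0.992) and BCL3 (0.989), among 12375 genes searched. Closest to VWF were SEPHS2 (r = 0.993), MREG (0.991), IL17RB (0.989) and TFAP2C (0.985). Closest to KDR were CTGF (r = 0.982), ZFP36L2 (0.979), CALML5 (0.978) and KRT14 (0.977). VEGFB, the most abundant ligand per length, had no neighbour as close, the nearest being SGK223 and U2AF2 (r = 0.918 each).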

How the data were processed

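Gene expression was measured by RNA-seq of total RNA from 12 samples in 4 groups of 3, grouped by the sample titles. Libraries used TruSeq Sample Preparation V2, per the labels' protocols. The authors deposited, for each sample and 23228 gene symbols, an RSEM expected count and the fraction of transcripts that the gene makes up. RSEM 1.1.16, DESeq 1.7.10 and hg19 are named in the submitters' processing notes, and the aligner and strand setting are not given in the sources used here. Without strand, reads of overlapping antisense genes cannot be told apart.

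The deposited expected counts were rounded to whole numbers and entered edgeR 4.0.16 (R 4.3.3): filterByExpr (minimum count 10, minimum total 15; 0.419 CPM or more in at least 3 libraries), TMM scaling, 1 mean per group over all 12 libraries, quasi-likelihood tests, and Benjamini-Hochberg adjustment over 14541 genes within each comparison, called at 0.05. The fitted biological coefficient of variation was 5.34%, or 2.90% with the replicate number as a block. CPM values are TMM-scaled counts, and TPM values are the authors' fractions scaled to transcripts-per-million (TPM). Relative transcript length is count over fraction, scaled by 6125 genes with a single transcript. Likeness used log2 CPM with a prior count of 2, for CD34, VWF, KDR and the most abundant ligand, over genes whose average log2 CPM was 1 or more. Motifs were searched in RefSeq promoters.

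The members and gene lists were chosen with earlier results of these data known. All 10 members are described; of each other list, up to 4 called genes with the smallest p per comparison are named, unless said otherwise. The alternatives were DESeq2 1.42.0, limma-voom (limma 3.58.1), RLE and upper quartile scaling, no filter, a filter at a minimum count of 30, the 2 groups compared alone, the later file date alone, each library left out, and the replicate number as a block.

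By the file names, replicate number 1 dates from an earlier run than numbers 2 and 3, which ran together in separate lanes. Deviations from the group mean over 12376 genes correlated at 0.104 to 0.464 between same-numbered libraries (18 pairs) and at −0.427 to 0.278 between others (36 pairs). Same-numbered libraries thus tended to deviate together, though the ranges overlapped. Centring within each group itself lowers the correlations between other numbers when the same-numbered ones are positive. Whether file date or lane set this was not tested. Calls that the block added among members and lists are named, with the blocked adjusted p for tested members and for some list genes. Those not named with their list are named under the processing alternatives. The fitting code was tested on simulated data. Some genes that the rules for named genes cover are not reported here.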

Additional observations from a re-analysis of the deposited data

Results flagged for a closer look

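The E2 difference in induced cells differed from that in uninduced cells for 3 members by the interaction test (edgeR). It was 0.30 log2 for VEGFA (adjusted p = 0.0431), 1.67 log2 for FLT1 (adjusted p = 0.0239) and −0.61 log2 for NRP1 (adjusted p = 0.0219). Over the alternatives the adjusted p ran from 0.00245 to 0.13 for VEGFA, from 0.00881 to 0.107 for FLT1 and from 0.00132 to 0.0717 for NRP1, and the sign held in each. The highest of these came without uninduced vehicle replicate 3 for VEGFA and FLT1, and without uninduced vehicle replicate 2 for NRP1.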

How the results depend on the processing

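Of 615 recomputed fold changes of the 6 tested family members, 565 kept their direction and their side of the threshold, 11 passed the threshold newly, 21 no longer passed it and 18 changed sign, all of those uncalled. The 312 of KDR, CD34 and VWF, read without a test, moved by less than the replicate SD. Of these, 6 changed sign, all for E2 in uninduced cells, where values ran from −0.171 to 0.0662 for KDR, −0.521 to 0.136 for CD34 and −0.298 to 0.392 for VWF. The calls of VEGFA, FLT1 and NRP1 for E2 in induced cells and for doxycycline with E2 held under each alternative, with adjusted p up to 0.00614, 0.0198 and 0.00689 in the first and up to 0.00239, 0.000967 and 0.000371 in the second. With the replicate block, family members called for doxycycline without E2 went to 1 (NRP2) instead of 0, and for doxycycline with E2 to 5 instead of 3, adding VEGFB and NRP2. Calls over all genes rose with the block as well. For doxycycline with E2 they went to 2774 higher and 2646 lower, from 2184 and 1894. Without E2 they went to 805 and 651, from 355 and 199. In the gene lists the block took no call away. Beside the calls it added in the report, it added MAPKAPK2, PLXNA2, CA9 and IL8 for E2 in induced cells, KRT19 and PLXND1 for doxycycline without E2, KRT7, GIPC1, PLXNA1, PLXNA2, PLXND1, SRC, LDHA, PDK1, PFKFB4, ANGPT1 and PDGFA for doxycycline with E2, and KRT19, PLXND1, PXN, CA9, EGLN1 and IL8 for the interaction. The later file date alone also gave 5 family members for doxycycline with E2, with 2668 of all genes higher and 2396 lower. With each library left out, the count ran from 3 to 5 for doxycycline with E2 (5 without induced vehicle replicate 1) and from 0 to 3 for the interaction. The cause was not tested.

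Sign changes with doxycycline without E2 were VEGFB at −0.0082 with upper quartile scaling (−0.0326 to 0.0594 with libraries left out), and PGF at 0.0284 with the replicate block, 0.354 with the later date and −0.695 to 0.279 with libraries left out. For E2 in uninduced cells, values with libraries left out ran from −0.0036 to 0.10 for VEGFA, −0.0160 to 0.0616 for VEGFB and −0.132 to 0.0393 for NRP2. In the interaction, the later date gave −0.0532 for PGF and 0.142 for NRP2, which ran from −0.155 to 0.0183 with libraries left out. PGF gave no value under the stricter filter. Over all genes, doxycycline without E2 had 355 higher and 199 lower calls, but 805 and 651 with the block, 643 and 439 with the later date, and 253 and 111 without uninduced vehicle replicate 2. The interaction had 823 and 409 calls, but 1288 and 855 with the block and 1276 and 829 with the later date. With upper quartile scaling, doxycycline with E2 had 1799 higher and 2679 lower calls, against 2184 and 1894. Depth limits PGF, VEGFC and FLT1, and in uninduced cells CD34 and VWF.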
